A study of Rattus norvegicus with 36 samples.

Results

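Lungs of irradiated rats late after exposure, at 3 and 4 weeks, were compared with irradiated lungs early after exposure, at 1 and 2 weeks. The 12 libraries of these 4 weeks, 6 late and 6 early, were taken by their tissue, dose and week, out of 36 libraries from lung and whole blood. All rats were female WAG/RijCmcr rats, 9 to 10 weeks old when the experiment began. The irradiated rats received 15 Gy of X-rays, made at 320 kVp, to the whole thorax, so that heart, blood and a small part of the liver were also in the field. Age-matched rats given 0 Gy were sampled only at 1 and 4 weeks, and their 6 lung libraries served as the background for age. Each group holds 3 libraries. The methods of the paper describe each library as a pool from 3 rats, or 9 rats in a group, while the labels speak of 3 rats. The lung RNA came from the right superior lobe, so the libraries hold all the cells of the lobe together, and fewer cells of a type cannot be told apart from less of a miRNA per cell.

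miRNAs are short RNAs that guide the silencing machinery to messenger RNAs by pairing, mainly through the seed, bases 2 to 8 from the 5′ end. miRNAs that share a seed are expected to share many targets. In irradiated lung an inflammatory phase, pneumonitis, comes first and can be followed by scarring. In this rat model the paper places both phases after the last week sampled here. Several miRNAs are textbook readouts of the cells involved. miR-142 and miR-223 are made by blood-forming cells and leukocytes. miR-146a and miR-146b are switched on by NF-kB and damp its signalling, and miR-21 accompanies tissue injury and fibrosis. The miRNAs of the imprinted Dlk1-Dio3 region, miR-127-3p among them, are made from the maternal chromosome and are most abundant in fetal tissue.

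The following mature sequences, from RefSeq on build GRCr8, belong to the miRNAs that the results turn on, with the seed in capitals. miR-127-3p lies on chromosome 6 at 134328510 to 134328531 on the plus strand, miR-142-5p and miR-142-3p are the 2 arms of a hairpin on chromosome 10 at 73055119 to 73055177 on the plus strand, and miR-146a-5p and miR-146b-5p share a seed though they come from chromosomes 10 and 1. miR-339-5p lies on chromosome 12 at 20391410 to 20391432 on the plus strand.
rno-miR-127-3p: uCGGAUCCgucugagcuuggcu
rno-miR-142-5p: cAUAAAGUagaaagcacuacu
rno-miR-142-3p: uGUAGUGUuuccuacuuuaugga
rno-miR-146a-5p: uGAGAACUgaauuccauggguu
rno-miR-146b-5p: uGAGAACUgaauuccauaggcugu
rno-miR-339-5p: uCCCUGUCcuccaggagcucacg

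The total counts of the 12 irradiated libraries ran from 8132 to 2353538, over 947 miRNAs. The library of 8132 counts, 3 weeks replicate 3, stands apart: 179 miRNAs were detected in it, against 503 to 688 in the other late libraries and 507 to 695 in the early ones. Levels are given as CPM, read counts over the library total after scaling with TMM factors, and in this library 1 count equals 139.7 CPM. There miR-486-5p took 48.1% of the counts, against 1.09% to 2.64% in the other late libraries and 1.05% to 5.65% in the early ones, and the red cell miRNAs listed took 48.5%, against 1.23% to 5.75% in the other irradiated lung libraries and 86.2% to 96.1% in blood. Results are therefore given with this library and without it. Among the unirradiated libraries, 1 week replicate 3 held 11621 counts. By two-sided exact permutation tests over the 924 assignments of libraries, late and early libraries did not differ past the threshold in total count (p = 0.924), miRNAs detected (p = 0.535), share of new miRNAs (p = 0.561) or share of miR-486-5p (p = 0.942), and all adjusted p were 0.942. The same permutation tests without 3 weeks replicate 3 gave p = 0.121 (adjusted p = 0.485) for the share of miR-486-5p and p of 0.719 to 0.970 for the rest. The mean share of miR-486-5p late was 9.46% with that library and 1.74% without it, against 3.06% early. The markers of lung tissue were present in all irradiated libraries: endothelial miR-126a held 1.01% of the counts in 3 weeks replicate 3 and 0.696% to 2.01% in the others, the epithelial list 0.492% there and 0.606% to 0.929% in the others, and the smooth muscle list 5.09% there and 5.51% to 11.8% in the others.

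miR-127-3p was lower late than early in every irradiated library. Its level was 889, 871 and 872 CPM at 1 week, 677, 547 and 777 CPM at 2 weeks, 391, 466 and 279 CPM at 3 weeks and 325, 311 and 155 CPM at 4 weeks. The late libraries, at 155 to 466 CPM, lay below all early ones, at 547 to 889 CPM, and the means were 321 ± 105 CPM late and 772 ± 137 CPM early (SD, n = 6 each). The log2 fold change of late over early was -1.25 (SE 0.24), with an adjusted p of 0.0252 by edgeR's quasi-likelihood test over all 499 miRNAs tested. The value at 279 CPM, in 3 weeks replicate 3, rests on 2 reads. Without that library the log2 fold change was -1.09 (SE 0.27) and missed the threshold (adjusted p = 0.133), and over 32 alternatives it ran from -1.34 to -0.999, always negative, with adjusted p of 0.000313 to 0.331 and 8 past the threshold. Among known rat miRNAs alone, 6 of 242 (2.48%) were called: miR-142-5p was higher late, and miR-127-3p, miR-326-3p, miR-504, miR-328a-3p and miR-339-5p were lower. DESeq2 called 3 of 496 (0.605%), miR-127-3p among them at -1.13 (adjusted p = 0.00435).

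Of the 499 miRNAs, 2 passed the threshold between late and early, or 0.401% of those tested, and both were lower late. The second is a new miRNA that the authors' files place at chr6:134184293-134184425 of build rn4. Its counts followed those of miR-127-3p, at 0.743 to 0.833 of them (median 0.791) in each of the 16 lung libraries outside the 2 shallow ones, so they are not independent calls. When single libraries were left out, edgeR made no call without any of 15 of the 18 lung libraries. The filter on low counts was applied anew in each of these fits, so the set of miRNAs tested could change too. The log2 fold change of the new miRNA was -1.22 (SE 0.23), with an adjusted p of 0.0252, and without 3 weeks replicate 3 it was -1.10 with an adjusted p of 0.133. At an unadjusted p under 0.05, 19 miRNAs were higher late (3.81%) and 40 were lower (8.02%). The median log2 fold change over all 499 was -0.062, and 0.0324 for the same miRNAs without 3 weeks replicate 3, so that more miRNAs had a negative sign with that library (278) and fewer without it (233).

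**Figure D1:**
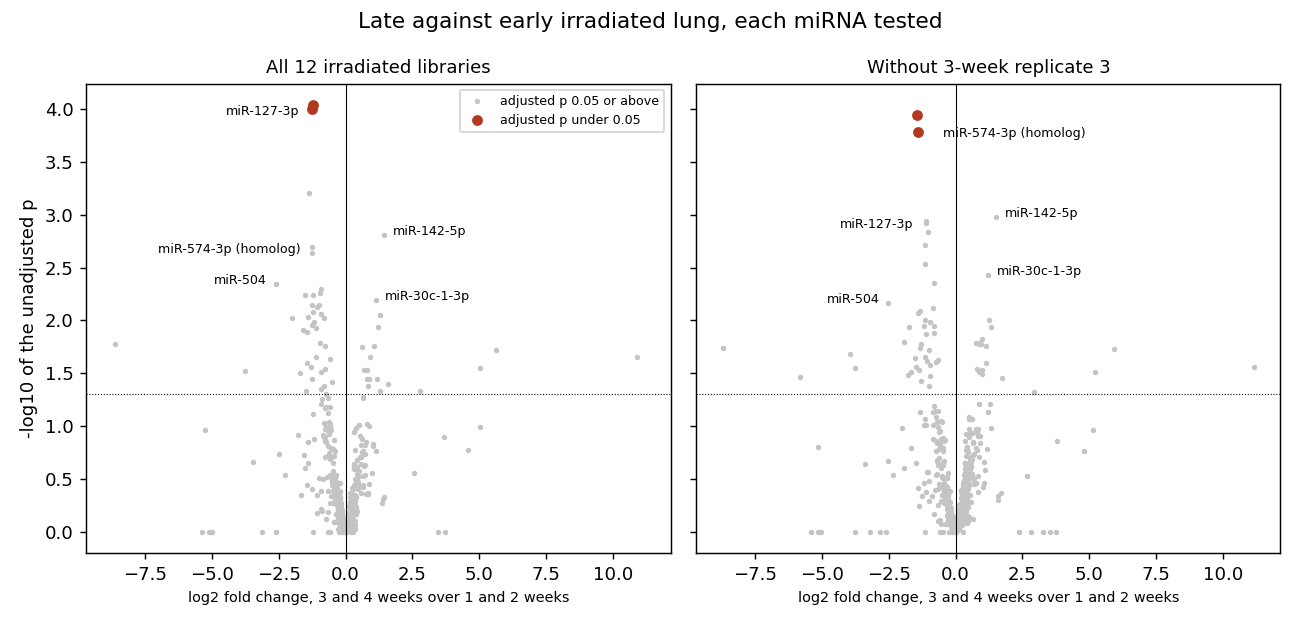
Each point is 1 tested miRNA, with the log2 fold change of late (3 and 4 weeks) over early (1 and 2 weeks) irradiated lung on the x axis and -log10 of the unadjusted p on the y axis, for all 12 libraries (left) and without 3 weeks replicate 3 (right). Red points pass an adjusted p of 0.05, which are miR-127-3p and its copy on the left and miR-574-3p and bta-miR-669 on the right, and the dotted line marks an unadjusted p of 0.05.

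When 3 weeks replicate 3 was left out, 558 miRNAs passed the filter on low counts, and a different pair was called, which is 0.358% of them. Both are homologs, miRNAs that the authors matched to other species: miR-574-3p, an entry that joins the human, mouse, dog, pig and gorilla names, and bta-miR-669, named after a bovine miRNA. miR-574-3p was at 280, 390 and 506 CPM at 1 week, 207, 326 and 273 CPM at 2 weeks, 128, 172 and 419 CPM at 3 weeks and 69.9, 107 and 91.2 CPM at 4 weeks. The value of 419 CPM is that of 3 weeks replicate 3, and the other late libraries lay below every early one. The log2 fold change of late over early was -1.41 (SE 0.27, adjusted p = 0.0462) without that library and -1.26 (SE 0.34, adjusted p = 0.19) with it. bta-miR-669 gave -1.43 (adjusted p = 0.0462) and -1.35 (adjusted p = 0.103) in the same order, and its counts were 0.704 to 0.824 of those of miR-574-3p.

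Across the 4 weeks in order, fitted as a straight line within the irradiated groups, 5 of 499 miRNAs passed the threshold, or 1% of those tested: miR-142-5p rose, while miR-127-3p, its copy, miR-574-3p and bta-miR-669 fell. The same 5 passed between 4 weeks and 1 week, again 1%. The line draws most of its weight from these same 2 weeks, so this is no separate support. Nor are the 5 independent calls, since the copy follows miR-127-3p and bta-miR-669 follows miR-574-3p. Without 3 weeks replicate 3 the trend called 6 of 558 (1.08%), these 5 and miR-339-5p. Leaving out single libraries gave 0 to 6 calls for the trend, and 0 for 9 of the 18. miR-127-3p fell by 0.60 on the log2 scale per week (SE 0.11, adjusted p = 0.0136), and by 0.55 without that library (adjusted p = 0.031). Its steps were -0.40 (SE 0.32) between 1 and 2 weeks, -0.77 (SE 0.33) between 2 and 3 weeks and -0.57 (SE 0.33) between 3 and 4 weeks, none of which passed the threshold alone. miR-574-3p fell by 0.68 per week (SE 0.15, adjusted p = 0.0408), and by 0.70 without 3 weeks replicate 3 (adjusted p = 0.0102).

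miR-142-5p, which is restricted to blood-forming cells and leukocytes in healthy tissue, was the known rat miRNA with the smallest p among those higher late. It was at 16.9, 39.3 and 45.3 CPM at 1 week, 89.1, 85.3 and 137 CPM at 2 weeks, 94.2, 146 and 140 CPM at 3 weeks and 107, 172 and 361 CPM at 4 weeks. The value of 140 CPM is 1 read of 3 weeks replicate 3. The week 1 libraries lay below all others, and the 2 and 3 week libraries overlapped. The miRNA rose by 0.82 on the log2 scale per week (SE 0.17, adjusted p = 0.0283), and by 0.83 without 3 weeks replicate 3 (adjusted p = 0.031). Between 4 weeks and 1 week the log2 fold change was 2.65 (SE 0.54, adjusted p = 0.0245). Late over early it was 1.45 (SE 0.37) with an adjusted p of 0.19, and the 2 week libraries, counted as early, stood near those of 3 weeks. The step between 1 and 2 weeks was 1.61 (SE 0.52, adjusted p = 0.544). The trend of miR-142-5p had the same sign in 32 of 32 alternatives, from 0.659 to 0.916 per week, and passed the threshold in 18.

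miR-142-3p, the other arm of the hairpin, was at 7.03, 17.2 and 22.9 CPM at 1 week, 37.4, 27.6 and 14.1 CPM at 2 weeks, 30.5, 46.5 and 0 CPM at 3 weeks and 50.4, 36.9 and 71.4 CPM at 4 weeks. The 0 is that of 3 weeks replicate 3. Its log2 fold change of late over early, 1.07 (SE 0.40), and its slope, 0.56 per week (SE 0.18), missed the threshold (adjusted p = 0.28 and 0.163). miR-223-3p, which marks neutrophils and other myeloid cells, showed no such order over the weeks. It was at 45.7, 85.9 and 51.6 CPM at 1 week, 125, 108 and 84.8 CPM at 2 weeks, 97.9, 51.3 and 0 CPM at 3 weeks and 62.8, 92.9 and 71.4 CPM at 4 weeks, and the log2 fold change of late over early was -0.17 (SE 0.36). The 2 highest values of miR-223-3p were from 2 weeks, and the weeks overlapped. Of the 4 miRNAs listed for myeloid cells and leukocytes, 3 were tested, the 2 arms of the miR-142 hairpin and miR-223-3p, so that their median of 1.07, against -0.062 over all miRNAs, is the value of miR-142-3p and rests on 1 locus.

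**Figure D2:**
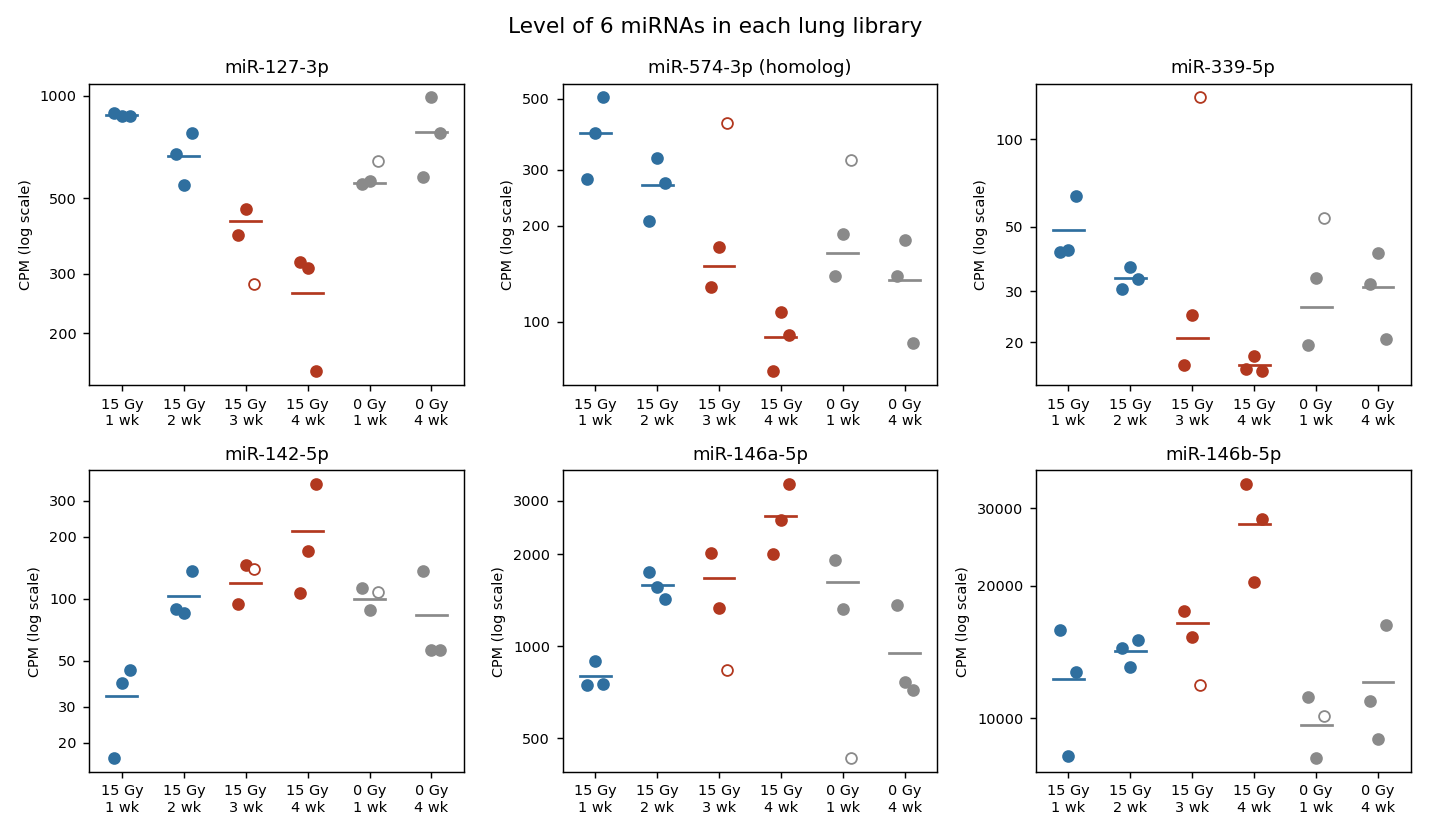
TMM-scaled CPM, on a log axis, of 6 miRNAs in each lung library, with 15 Gy at 1 and 2 weeks in blue and at 3 and 4 weeks in red, and 0 Gy at 1 and 4 weeks in grey. Open circles are the libraries of 8132 and 11621 counts and bars are means of the other points. miR-127-3p is lower at 3 and 4 weeks (155 to 466 CPM) than at 1 and 2 weeks (547 to 889 CPM). Among the irradiated weeks the means of miR-142-5p, miR-146a-5p and miR-146b-5p are highest at 4 weeks.

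Both NF-kB induced miRNAs had their highest mean of the irradiated weeks at 4 weeks, though neither passed the threshold in the main test. miR-146b-5p, the most abundant of the list, was at 15836, 8209 and 12727 CPM at 1 week, 14423, 13099 and 15044 CPM at 2 weeks, 17525, 15299 and 11875 CPM at 3 weeks and 34015, 20400 and 28281 CPM at 4 weeks. The 4 week libraries lay above all others, and those of the other weeks overlapped. Late over early the log2 fold change was 0.62 (SE 0.23, adjusted p = 0.28), and 0.77 without 3 weeks replicate 3 (adjusted p = 0.301). The step between 3 and 4 weeks was 0.89 (SE 0.33), and the slope was 0.36 per week (SE 0.10, adjusted p = 0.149).

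miR-146a-5p was at 748, 893 and 750 CPM at 1 week, 1755, 1565 and 1432 CPM at 2 weeks, 2014, 1333 and 838 CPM at 3 weeks and 2010, 2584 and 3399 CPM at 4 weeks. All 1 week libraries lay below those of 2 and 4 weeks, while 838 CPM, which is 6 reads in 3 weeks replicate 3, lay within the range of 1 week. Its slope was 0.51 per week (SE 0.15, adjusted p = 0.149), and the log2 fold change of late over early was 0.79 (SE 0.33, adjusted p = 0.337). With DESeq2, where 10 of 496 miRNAs were called for the trend (2.02%), both were called, miR-146a-5p at 0.54 per week (adjusted p = 0.0179) and miR-146b-5p at 0.38 per week (adjusted p = 0.0177). Of the 8 miRNAs of the inflammation and NF-kB list, 5 were tested, 4 with a positive and 1 with a negative sign, and the median was 0.621. The summed level of the list was 13130 to 38830 CPM late (median 22560) and 9689 to 17530 CPM early (median 16500), against 10210 to 18510 CPM in unirradiated lung. In irradiated lung most of this sum was miR-146b-5p.

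miR-21-5p, which is raised in injured and fibrotic tissue, was at 888, 493 and 1392 CPM at 1 week, 983, 938 and 749 CPM at 2 weeks, 1081, 1462 and 419 CPM at 3 weeks and 2736, 1314 and 1939 CPM at 4 weeks. Late and early libraries overlapped, and the log2 fold change was 0.65 (SE 0.31, adjusted p = 0.44), or 0.89 without 3 weeks replicate 3 (adjusted p = 0.301). Its passenger arm miR-21-3p was low, with 2 to 26 reads in the early libraries and 1 to 107 in the late ones, and gave 1.17 (SE 0.50, adjusted p = 0.357). Among the 8 miRNAs listed for mesenchyme and fibrosis all were tested, 5 with a positive and 3 with a negative sign, and the median was 0.366. None of them passed the threshold.

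The miRNAs of the Dlk1-Dio3 region other than miR-127-3p were scarce in adult lung. Of the 69 listed, 20 had no read in any irradiated library and 5 passed the filter on low counts. All 5 had a negative sign late over early, from -1.25 to -0.0476 with a median of -0.453, and miR-127-3p alone passed the threshold. Without 3 weeks replicate 3, 7 were tested, 6 of them negative, with a median of -0.381 and a range of -1.78 to 0.0585, and none passed the threshold. miR-411-5p, at 2.38 to 26.6 CPM in the late libraries outside 3 weeks replicate 3 and 7.52 to 33.7 CPM in the early ones, gave -0.80 (SE 0.49, adjusted p = 0.669). The summed level of the region was 194 to 546 CPM late (median 368) and 608 to 1009 CPM early (median 903), against 638 to 1107 CPM in unirradiated lung, and most of it was miR-127-3p.

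Late libraries lay wholly below early ones for 5 of 499 miRNAs, or 1%, and for 10, or 2%, without 3 weeks replicate 3, while wholly above was seen for 0 miRNAs, 0%, in either case. The known rat miRNAs among them were miR-127-3p, miR-504 and miR-455-3p, joined without that library by miR-339-5p, miR-351-5p and miR-6328. miR-504 and miR-455-3p had 0 reads in 3 weeks replicate 3, where 1 count equals 139.7 CPM. A 0 there lies below any early value above 0 and makes wholly above impossible. The filter on low counts can also pass a miRNA through early or unirradiated libraries alone. For a miRNA as scarce late as miR-504, the lack of overlap is therefore no support for a fall. miR-455-3p, from an intron of the collagen gene Col27a1, was at 45.7, 56.4 and 69.3 CPM at 1 week, 35.5, 43.9 and 61.2 CPM at 2 weeks, 22.2, 35 and 0 CPM at 3 weeks and 20.5, 31 and 27.8 CPM at 4 weeks. Its lowest early library, at 35.5 CPM, stood just above its highest late one, at 35 CPM, and the log2 fold change was -0.94 (SE 0.28, adjusted p = 0.228).

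miR-339-5p was at 40.8, 41.7 and 64.1 CPM at 1 week, 30.5, 36.4 and 33 CPM at 2 weeks, 16.6, 24.8 and 140 CPM at 3 weeks and 16.2, 17.9 and 15.9 CPM at 4 weeks. The value of 140 CPM is 1 read of 3 weeks replicate 3. The slope was -0.50 per week (SE 0.15, adjusted p = 0.149) with that library and -0.51 (SE 0.11, adjusted p = 0.0445) without it, and late over early it gave -0.96 (SE 0.35, adjusted p = 0.28) and -1.04 (SE 0.26, adjusted p = 0.136). miR-504 rested on few reads: 8, 3 and 28 at 1 week, 5, 4 and 1 at 2 weeks, 1, 2 and 0 at 3 weeks and 3, 0 and 0 at 4 weeks. Its fitted log2 fold change of -2.60 (SE 0.77, adjusted p = 0.228) depends on the prior count.

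The sequences that follow place 2 miRNAs beside relatives with the same seed, in capitals, because members of a seed group did not share 1 sign. miR-363-3p comes from the miR-106a-363 cluster on chromosome X, and miR-92a-3p from that cluster and from the miR-17-92 cluster. miR-449c-5p and miR-34a-5p carry the seed of the miR-34 family.
rno-miR-363-3p: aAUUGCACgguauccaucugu
rno-miR-92a-3p: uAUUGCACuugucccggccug
rno-miR-449c-5p: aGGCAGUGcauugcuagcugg
rno-miR-34a-5p: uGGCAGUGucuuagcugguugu

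miR-363-3p was at 2.11, 4.91 and 2.08 CPM at 1 week, 13.7, 11.3 and 4.71 CPM at 2 weeks, 13.8, 10.9 and 0 CPM at 3 weeks and 10.5, 10.7 and 19.8 CPM at 4 weeks. It rested on 1 to 22 reads a library outside 3 weeks replicate 3. The log2 fold change of late over early was 1.20 (SE 0.41, adjusted p = 0.233), while its seed relatives miR-92a-3p, miR-25-3p and miR-92b-3p gave -0.20 (SE 0.25), -0.21 (SE 0.29) and -0.64 (SE 0.38). The 1 week libraries of miR-363-3p were low, and no member of the seed group passed the threshold.

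miR-351-5p, a rodent miRNA of the miR-322 and miR-503 cluster on chromosome X, was at 5058, 4157 and 3761 CPM at 1 week, 2770, 4270 and 5892 CPM at 2 weeks, 2528, 2690 and 3213 CPM at 3 weeks and 1718, 2593 and 2518 CPM at 4 weeks. Outside 3 weeks replicate 3 its late libraries lay below its early ones, by a narrow gap of 2690 against 2770 CPM, and the log2 fold change was -0.77 (SE 0.29, adjusted p = 0.28). In its cluster 7 of 9 miRNAs were tested, 4 with a positive and 3 with a negative sign, and the median was 0.0268. miR-449c-5p, which with miR-449a-5p belongs to cells that build cilia, gave -1.16 (SE 0.39, adjusted p = 0.233), miR-449a-5p -0.75 (SE 0.38), miR-34a-5p 0.13 (SE 0.23) and miR-34c-5p 0.19 (SE 0.24). None of these passed the threshold.

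The remaining known miRNAs with the smallest p were scarce or moderate in level. Among those with a positive sign, miR-30c-1-3p was low at 2 weeks alone, with 4, 1 and 1 reads there, against 5 to 20 reads at 1 week and 5 to 23 reads at 3 and 4 weeks outside 3 weeks replicate 3, and gave 1.14 late over early (SE 0.36, adjusted p = 0.228). miR-141-3p, of the epithelial miR-200 family, was at 569, 751 and 1020 CPM at 1 week, 1406, 1407 and 1276 CPM at 2 weeks, 1476, 1983 and 1397 CPM at 3 weeks and 1161, 1640 and 2268 CPM at 4 weeks, so that the 1 week libraries stood below the others, and gave 0.68 (SE 0.28, adjusted p = 0.337). let-7f-1-3p, miR-374-5p, miR-26a-3p and miR-34c-3p gave 0.80 to 0.90 with adjusted p of 0.306 to 0.384. The 13 epithelial miRNAs listed had a median of 0.0401, 7 with a positive and 6 with a negative sign.

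Among those with a negative sign, miR-326-3p, from an intron of the beta-arrestin gene Arrb1, was at 46.4, 63.8 and 69.8 CPM at 1 week, 32.4, 71.5 and 84.8 CPM at 2 weeks, 26.8, 31.4 and 0 CPM at 3 weeks and 12.8, 22.6 and 39.7 CPM at 4 weeks. Late and early overlapped through 39.7 and 32.4 CPM, and the log2 fold change was -1.24 (SE 0.33, adjusted p = 0.19). miR-328a-3p was at 527, 326 and 521 CPM at 1 week, 183, 315 and 414 CPM at 2 weeks, 159, 206 and 140 CPM at 3 weeks and 144, 117 and 174 CPM at 4 weeks, and gave -1.23 (SE 0.40, adjusted p = 0.228). miR-423-3p gave -0.91 (SE 0.30, adjusted p = 0.228), at 429 to 661 CPM late and 579 to 1347 CPM early, and a new miRNA at chr10:67078689-67078839 of rn4 held 0.968 to 1.05 of its counts. miR-547-5p, miR-25-5p, miR-1249 and miR-6328, at no more than 84.8 CPM outside 3 weeks replicate 3, gave -1.20 to -1.50 and missed the threshold. miRNAs that mature outside the usual route through Drosha, such as mirtrons, which are spliced introns, were mostly negative too. Of 10 listed, 8 were tested, 7 of them negative, with a median of -0.501. The mirtrons miR-702-3p and miR-3102 gave -1.10 (SE 0.38) and -1.72 (SE 0.72), and none of the list passed the threshold.

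**Figure D3:**
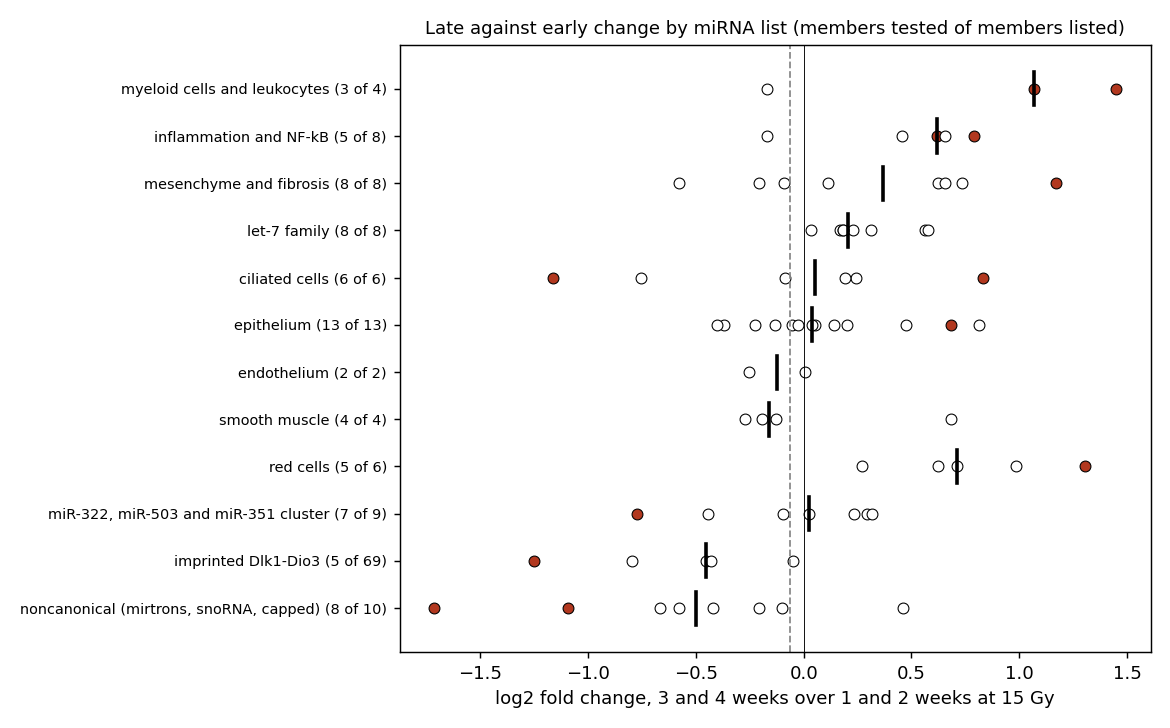
Each dot is 1 tested member of a list of miRNAs, at its log2 fold change of late over early irradiated lung with all 12 libraries, and labels give the tested and the listed members. Red dots have an unadjusted p under 0.05, black bars are list medians, among them 1.07 for myeloid cells and leukocytes (2 arms of miR-142 and miR-223-3p), 0.621 for inflammation and -0.501 for the noncanonical miRNAs, and the dashed line is the median of all 499 miRNAs, -0.062.

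Lists of other cell types stood near the median of all miRNAs. The medians were -0.048 for lymphocytes, -0.122 for endothelium, -0.161 for smooth muscle and 0.0533 for ciliated cells, and no member passed the threshold. Without 3 weeks replicate 3 those of endothelium and smooth muscle were 0.0329 and 0.043, beside 0.0324 over all miRNAs. The 8 let-7 miRNAs all had a positive sign, from 0.0336 to 0.577 with a median of 0.207, and 0 had an unadjusted p under 0.05. Other families were mixed in sign: the median was 0.146 for 11 miRNAs of the miR-30 family, 0.206 for 8 of miR-23, miR-27 and miR-24, 0.182 for 3 of miR-221 and miR-222, -0.126 for 11 of miR-10, miR-99, miR-100 and miR-125, -0.145 for 12 of the miR-17-92 and related clusters and 0.0986 for 3 of the miR-532 cluster. The single tested miRNAs of the lists for muscle, hypoxia and neuroendocrine cells gave -0.426, -0.361 and -0.312, the liver miRNA was not tested, and 13 miRNAs that the study named, a list chosen on these samples, had a median of 0.273. None of these passed the threshold. The red cell list had a median of 0.71 with 3 weeks replicate 3 and 0.338 without it. miR-451-5p, a red cell miRNA, was at 1397 CPM in that library and 62.2 to 99.1 CPM in the other late ones, and its log2 fold change of 1.31 (SE 0.60) became 0.21 (SE 0.24) without it. miR-486-5p gave 0.98 (SE 0.87) with it and -0.72 (SE 0.65) without it.

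Between neighbouring weeks 1 miRNA passed the threshold, miR-338-3p between 1 and 2 weeks, or 0.2% of the 499. It had 4, 1 and 6 reads at 1 week, 34, 14 and 2 at 2 weeks, 14, 18 and 0 at 3 weeks and 19, 8 and 2 at 4 weeks, and its log2 fold change of 2 weeks over 1 week was 2.52 (SE 0.45, adjusted p = 0.0315). Without 3 weeks replicate 3 the adjusted p was 0.104, and leaving out any of 16 of the 18 lung libraries ended the call. miR-3065-5p had nearly the same reads in every irradiated library, at most 4 apart, and its 20 bases pair with those of miR-338-3p at the same place on chromosome 10, so the 2 cannot be told apart unless the counting used strand. Their sequences, 5′ to 3′ with the seed in capitals, show it.
rno-miR-338-3p: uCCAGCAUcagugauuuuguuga
rno-miR-3065-5p: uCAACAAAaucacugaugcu

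Between 2 and 3 weeks and between 3 and 4 weeks edgeR called 0 miRNAs, with 18 each at an unadjusted p under 0.05, and DESeq2 called 5 and 2. For a change between any of the weeks it also called 0, with 46 at an unadjusted p under 0.05, and DESeq2 called 2. The smallest adjusted p of that test was 0.0964, for miR-127-3p and miR-338-3p. Weekly means were in descending order over all 4 weeks for 32 of 499 miRNAs and in ascending order for 18, or for 39 and 31 without 3 weeks replicate 3. Among the 242 known rat miRNAs tested these were 19 and 12, or 22 and 21. Whether such counts exceed those of weeks in no order was not tested.

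Unirradiated lung at 4 weeks over 1 week served as the background for age. miR-127-3p was at 550, 561 and 645 CPM at 1 week and 577, 991 and 780 CPM at 4 weeks at 0 Gy. The log2 fold change of 4 weeks over 1 week was -1.73 (SE 0.33) at 15 Gy and 0.42 (SE 0.33) at 0 Gy. The 2 differed by -2.16 (SE 0.47), with an adjusted p of 0.0913. At 1 week the irradiated libraries, at 871 to 889 CPM, lay above the unirradiated ones, and at 4 weeks, at 155 to 325 CPM, they lay below them. The value of 645 CPM rests on few reads of 0 Gy 1 week replicate 3. The TMM factor was 1.601 in that library and 0.4626 in 0 Gy 4 weeks replicate 3, against 0.881 to 1.212 in the other lung libraries. Over library totals alone the order at 1 week is lost, while that at 4 weeks stays. miR-142-5p was at 113, 88.1 and 108 CPM at 1 week and 137, 56.5 and 56.6 CPM at 4 weeks at 0 Gy, so that the irradiated libraries at 1 week, at 16.9 to 45.3 CPM, lay below the unirradiated ones, while at 4 weeks, at 107 to 361 CPM, they overlapped with them. The value of 108 CPM is from 0 Gy 1 week replicate 3, where 1 count equals 53.77 CPM. The log2 fold change of miR-142-5p was 2.65 at 15 Gy and -0.29 (SE 0.52) at 0 Gy, and the difference was 2.94 (SE 0.74, adjusted p = 0.13).

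miR-146a-5p was at 1918, 1323 and 430 CPM at 1 week, the last in the library of 11621 counts, and 1366, 765 and 717 CPM at 4 weeks at 0 Gy. Its log2 fold change was 1.74 (SE 0.47) at 15 Gy and -0.38 (SE 0.46) at 0 Gy, a difference of 2.13 (SE 0.66, adjusted p = 0.256). That of miR-146b-5p was 1.17 (SE 0.33) at 15 Gy and 0.30 (SE 0.33) at 0 Gy, and the difference was 0.87 (SE 0.46, adjusted p = 0.341). miR-423-5p gave -0.93 at 15 Gy and 0.83 at 0 Gy, a difference of -1.77 (SE 0.44, adjusted p = 0.13), and miR-375-3p, of neuroendocrine cells, differed by -2.20 (SE 0.72, adjusted p = 0.256). No miRNA passed the threshold for the difference between doses by edgeR, where 68 had an unadjusted p under 0.05, while DESeq2 called 13 and edgeR on the 242 known rat miRNAs alone called 19, 7 positive and 12 negative. Over the alternatives miR-127-3p, miR-142-5p and miR-146a-5p passed in 3 each, with adjusted p of 0.00168 to 0.557, 0.0161 to 0.557 and 0.0133 to 0.653. The median of this difference over all miRNAs was -0.33, and -0.188 with RLE size factors or 0.115 with library totals, so the values should be read against these shifts. Between 0 Gy at 4 weeks and 1 week edgeR called 0 miRNAs, with 36 at an unadjusted p under 0.05, and DESeq2 called 6. Of the 36, 28 were higher and 8 lower at 4 weeks, but without the library of 11621 counts 13 were higher and 28 lower, and the median difference between doses was 0.0774 in place of -0.33. With single libraries left out the counts at an unadjusted p under 0.05 ran from 13 to 62 at 0 Gy and from 34 to 98 for the difference between doses.

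**Figure D4:**
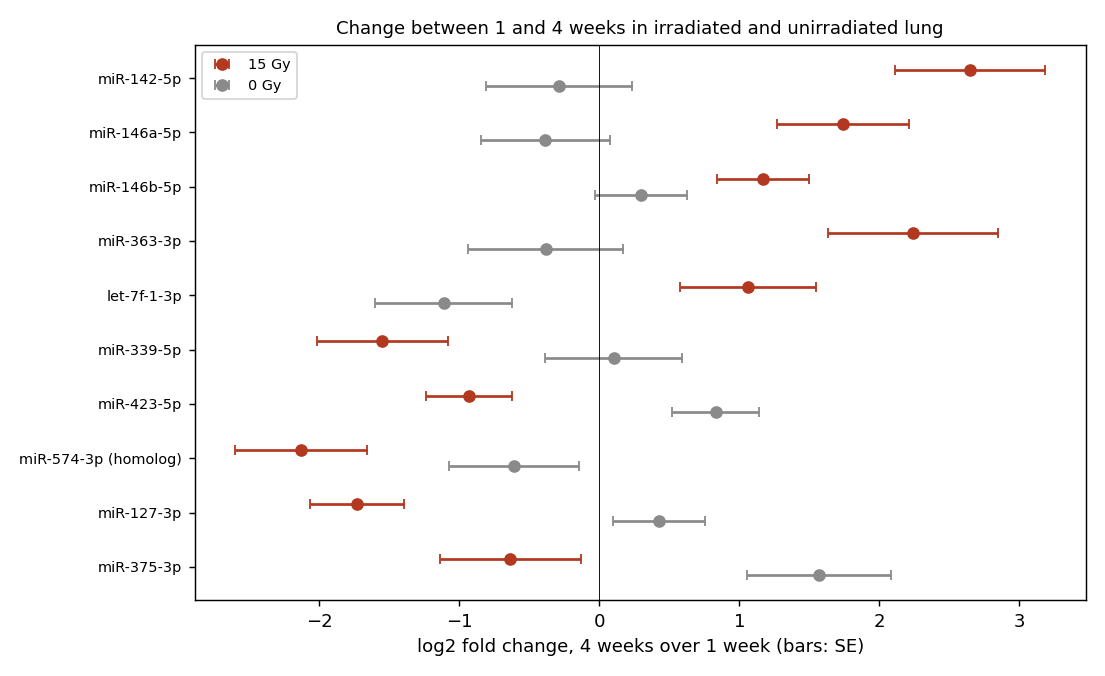
Log2 fold change of 4 weeks over 1 week, with its SE, at 15 Gy (red, upper) and 0 Gy (grey, lower) for 10 miRNAs with small p in the comparisons. miR-127-3p stands at -1.73 at 15 Gy and 0.42 at 0 Gy and miR-142-5p at 2.65 and -0.29, and for none of them did the difference between doses pass the threshold.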

How the data were processed

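Small RNA of lung and blood was sequenced in 36 libraries, of which the 12 irradiated lung libraries and 6 unirradiated ones are described. The authors trimmed adapters and bases of quality under 13, mapped reads to miRBase 19 with Bowtie, removed other RNA classes and predicted new miRNAs with miRanalyzer; build rn4, Trim Galore 0.2.5 and Bowtie 1.1.1 come from the submitters' processing notes. The authors deposited read counts, not normalized, for 947 miRNAs, 458 known in rat, 116 homologs and 373 new. Whether counting used strand is not given in the sources used here.

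edgeR 4.0.16 (with limma 3.58.1, R 4.3.3) was fitted to the 18 lung libraries in 6 groups, which share 1 estimate of the spread. miRNAs of low count were removed with filterByExpr, which left 499 miRNAs (242 known, 62 homologs, 195 new). It keeps a miRNA that is high enough in about as many libraries as the smallest group holds. A kept miRNA can therefore be low in most libraries. Counts were scaled with TMM, tested with the quasi-likelihood test and adjusted by Benjamini-Hochberg over all 499, with a threshold of 0.05. The SE is the log2 fold change over the root of F. CPM are TMM-scaled, with no correction for the length of a miRNA. Library measures were tested by two-sided exact permutation in SciPy 1.17.1. DESeq2 1.42.0 and the other alternatives are in the closing section. The code of the fit was checked on simulated counts with known changes. Their levels and spread were taken from these libraries, so the check is no support for the results.

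Named miRNAs are the 10 known rat miRNAs of smallest p in each direction between late and early, those of smallest p in the other comparisons, all past the threshold, list members, and those whose late and early libraries did not overlap; not each is printed. The 25 lists and the miRNAs were chosen with earlier results of these data known, and so were the comparisons. The result of 1 list is not reported here. By the paper's 9 rats in a group, the libraries of a group are pools of separate rats, though the labels do not say so. The p-values measure the spread between these libraries. A replicate block was an alternative. Of the 242 known miRNAs tested, 218 matched a RefSeq sequence of GRCr8.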

Additional observations from a re-analysis of the deposited data

Results flagged for a closer look

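Single libraries lay far from the rest of their group of 6, by Dixon's ratio at its 95% critical value, which chance passes in about 1 in 20 groups. The library of 8132 counts, 3 weeks replicate 3, was the extreme late library in miRNAs detected (179), share of new miRNAs (18.77%) and share of miR-486-5p (48.09%), and in the CPM of miR-486-5p (546400), miR-451-5p (1397), miR-574-3p (419.1), bta-miR-669 (279.4) and miR-320-3p (279.4). miR-21-3p, miR-339-5p, miR-6328 and miR-3102 each stood at 139.7 CPM there, which is 1 read.

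miR-142-5p at 4 weeks replicate 3, a library of 258078 counts, stood at 360.9 CPM, above the 94.2 to 172 CPM of the other late libraries. Among the early libraries, 2 weeks replicate 3, of 239592 counts, was the highest for miR-21-3p (51.81 CPM), miR-6328 (80.07 CPM), miR-451-5p (136.6 CPM) and miR-3102 (42.39 CPM). 1 week replicate 3 was the highest for miR-339-5p (64.06 CPM) and miR-504 (14.58 CPM), and 2 weeks replicate 1 for miR-374-5p (19.33 CPM). Among the late libraries 3 weeks replicate 2 was the highest for miR-34c-5p (1172 CPM).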

How the results depend on the processing

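For the 43 miRNAs whose late over early fold change was recomputed, 1303 values kept their sign and their side of the threshold over the alternatives, 48 lost the call, 18 gained one and 7 changed sign. Most of the 1303 values belong to miRNAs that had no call in the main fit. The 48 were all of miR-127-3p and its copy, which lost the call in 24 alternatives each and kept it in 8 and 7. Fits that also left out 3 weeks replicate 3 (DESeq2, block) and those without the 3 libraries under 300000 counts were chosen after seeing the data. The 2 calls between late and early became 0 with library totals, no filter, a mean count above 1000, only the 12 irradiated libraries, a replicate block, miR-486-5p left out before scaling, or the 3 irradiated libraries under 300000 counts left out, 6 among known rat miRNAs, 4 with the log10 library total as covariate, 3 with DESeq2, 14 with DESeq2 without 3 weeks replicate 3, and 59 at an unadjusted p. The 5 calls of the trend became 0 with library totals, no filter, a mean count above 1000 or those 3 libraries left out, 10 with DESeq2, 14 among known miRNAs, 8 without the shallow libraries (depth under 0.1 of the median), 8 with the covariate, 17 with DESeq2 without 3 weeks replicate 3, 2 with a replicate block without it, and 67 at an unadjusted p. Between 4 weeks and 1 week the 5 calls became 0 with the same 4 settings, 10 with DESeq2, 13 among known miRNAs, 8 without the shallow libraries, 13 with DESeq2 and 2 with the block without 3 weeks replicate 3, and 69 at an unadjusted p. The labels do not say that replicate numbers pair libraries, and correlations between same-numbered libraries ran from -0.199 to 0.378: all 3 were over 0.1 in 3 pairs of groups (15 Gy 2 and 4 weeks, and 0 Gy 1 week with 15 Gy 2 or 3 weeks) and not in the others, so the numbers were not taken as a pairing. With the replicate block miR-127-3p gave -1.28 between late and early (adjusted p = 0.0608). The 1 call between neighbouring weeks became 0 with library totals, no filter, a mean count above 1000, shallow libraries left out, the replicate block with or without 3 weeks replicate 3, miR-486-5p left out or the 3 libraries left out, 13 with DESeq2, 22 with DESeq2 without that library, 3 among known miRNAs and 61 at an unadjusted p. The 0 calls for any week became 2 with DESeq2, 6 with DESeq2 without that library, 3 among known miRNAs and 46 at an unadjusted p, and the 0 for the difference to 0 Gy became 13, 17, 19 and 68. The cause was not tested, and the fits without a filter or with one of 1000 tested 860 and 98 miRNAs.

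Leaving out 1 lung library at a time gave 0 to 3 calls between late and early, 0 to 6 for the trend, 0 to 7 for 4 weeks against 1 week, 0 to 1 for neighbouring weeks, and 0 to 0 for any week and for the difference to 0 Gy. Each of these fits applied the filter on low counts anew. A lost call therefore cannot be set down to the library apart from the changed set of miRNAs tested. Between late and early 15 of the 18 left-out libraries ended the calls; those that did not were 0 Gy 4 weeks replicate 2 and 15 Gy 4 weeks replicate 1, and 15 Gy 3 weeks replicate 3 gave another pair. For the trend 9 ended the calls: 0 Gy 1 week replicates 1 and 2, and 15 Gy 1 week replicates 2 and 3, 2 weeks replicates 2 and 3, 3 weeks replicate 1 and 4 weeks replicates 2 and 3. Those 9 and 15 Gy 1 week replicate 1 ended the calls for 4 weeks against 1 week, and 2 were left without 0 Gy 4 weeks replicate 3 or 15 Gy 3 weeks replicate 2. The call between neighbouring weeks stayed only without 0 Gy 4 weeks replicate 3 or 15 Gy 2 weeks replicate 3. Without 3 weeks replicate 3 the late minus early difference of the library measures became 158200 counts, 7.667 miRNAs detected, 0.1323 percentage points of new miRNAs and -1.328 of miR-486-5p. With single libraries left out miR-223-3p ran from -0.402 to 0.0358, positive without 15 Gy 1 week replicate 2, and miR-486-5p from -0.724 to 1.34. miR-486-5p turned to -0.724 without the shallow libraries or 3 weeks replicate 3, -0.351 with the covariate, -0.715 with DESeq2 and -0.542 with the block, both without that library, and -0.632 without the 3 libraries. In 3 weeks replicate 3 a value under 419.1 CPM rests on fewer than 3 reads.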
